A study of Homo sapiens with 6 samples.

Results

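Occupancy of the kinase CDK2 on chromatin was compared between T47D-MTVL cells after 5 min of progestin and cells before hormone, window by window along the autosomes. T47D-MTVL is a derivative of the human breast cancer line T47D that carries an integrated mouse mammary tumour virus reporter. Cells were kept in hormone-stripped serum and then without serum, and were fixed with formaldehyde. The 0 min cells received no hormone, and the 5 min cells received 10 nM R5020, a synthetic progestin. Chromatin immunoprecipitation followed by sequencing (ChIP-seq) with an antibody against CDK2 gave 1 library at each of these times, with 45111064 reads at 0 min and 57793168 reads at 5 min. The other 4 libraries of the study, CDK2 at 30 min and the poly(ADP-ribose) polymerase PARP1 at 0, 5 and 30 min, serve here as a reference, and cells of the later times had the same hormone and dose. The comparison covers the 263610 autosomal windows of 10 kb whose mean over the 6 libraries was at least 10 reads, of 303641 windows in the whole table. Another 20643 autosomal windows held 0 reads in all 6 libraries, 3860 lay under the minimum, and 15528 windows of chromosome X were left out. Each count was divided by the total of its library, and a ratio is the 5 min value over the 0 min value. Coordinates are those of the human build hg19, and windows were not assigned to genes.

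CDK2 is a cyclin-dependent kinase best known for driving cells into and through DNA replication together with cyclins E and A. In hormone-responsive breast cells, progestins bind the progesterone receptor, which acts on target genes in the nucleus and also starts kinase signalling in the cytoplasm. The series title places the work on the activation of PARP1 by CDK2 in hormonal gene regulation. PARP1 is an enzyme that builds ADP-ribose chains on chromatin proteins. ChIP-seq counts DNA fragments that come down with the antibody, so a window count mixes bound DNA with background DNA, and no input library was used here.

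With 1 library a side, no value below has an error between replicates, and each comparison is between these 2 libraries and not between the conditions. Counting intervals assume independent reads, which amplified fragments are not, so they cover counting error only. A widened 95% interval uses the dispersion of each library, a robust measure of how much adjacent windows differ, divided by the value that independent reads would give. It also takes in real differences between neighbouring windows. Variation that extends over many windows is left out, so intervals for blocks, arms and chromosomes can be too narrow. On the compared windows this dispersion was 7.44 for CDK2 at 0 min, 51.8 at 5 min and 24.1 at 30 min, and 6.12 to 11.5 for the PARP1 libraries. The 5 min CDK2 library therefore varied most from one window to the next, and with 1 library its chromatin and its preparation cannot be told apart as the source.

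In single windows, the CDK2 libraries of 5 and 0 min differed widely in both directions. The median ratio was 0.957, the middle 50% of windows lay between 0.640 and 1.33, and only 27.3% of windows lay within 1.2-fold of equality. A ratio of at least 2 was reached by 15548 windows, 5.9% of those compared, and a ratio of at most 0.5 by 41146 windows, 15.6%. These windows are called higher and lower below. The same limits called 13958 (5.29%) and 28960 (11%) for CDK2 at 30 min, 2219 (0.842%) and 4013 (1.52%) for PARP1 at 5 min, and 1026 (0.389%) and 1302 (0.494%) for PARP1 at 30 min, each against its own 0 min library. Among all called windows, 27.4% were higher with scaling by totals, 33.1% with TMM factors and 64.5% when libraries were scaled on the least covered windows. Lower windows thus outnumbered higher ones by totals and TMM and not with the last scaling, which by its construction favours windows with few reads at 5 min.

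In the called windows the 5 min CDK2 library lay apart from the others. In the higher windows the median was 5.55 reads for CDK2 at 5 min, with each library scaled to a total of 1000000 reads. The same windows had 2.28 for CDK2 at 0 min, 2.64 for CDK2 at 30 min, and 2.82, 2.74 and 2.74 for PARP1 at 0, 5 and 30 min. In the lower windows the median was 1.02 for CDK2 at 5 min, against 3.15 at 0 min, 2.94 at 30 min, and 2.92, 2.96 and 2.93 for PARP1. By these medians the 5 min CDK2 library stood apart from all 5 others in both sets. The sets were chosen on its ratio to 0 min, so its distance from the 0 min library was fixed by that choice. Its distance from the other libraries follows from the choice in part. As a ratio to the mean of the 4 reference libraries, the median for CDK2 at 0 min was 0.827 in the higher windows and 1.05 in the lower ones, and for CDK2 at 5 min it was 1.99 and 0.338. Set against the mean of the 4 reference libraries directly, CDK2 at 5 min was at least 2-fold higher in 5.42% of windows and at most 0.5-fold in 15.9%. For CDK2 at 0 min these shares were 0.295% and 0.860%.

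PARP1 at 5 min against 0 min shares no library with the CDK2 comparison and did not separate these windows by much. Its median ratio was 0.973 in the windows higher for CDK2, 1.01 in those lower for CDK2 and 0.990 in the rest. PARP1 was itself at least 2-fold higher in 251 of the windows higher for CDK2 (1.61%), against 0.842% of all windows. It was at most 0.5-fold in 465 of them (2.99%), against 1.52%. In the windows lower for CDK2, PARP1 was at least 2-fold higher in 595 (1.45%) and at most 0.5-fold in 864 (2.10%). CDK2 at 30 min, whose ratio uses the same 0 min library, had median ratios of 1.14, 0.919 and 0.964 in the windows higher, lower and in between at 5 min.

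Called windows were most frequent where coverage was low. Windows were split into 5 equal groups by the mean of the 4 reference libraries, which leaves the compared pair out. In the lowest group, 22.9% of windows were lower and 10.4% were higher. In the highest group, with a median of 252 reads at 0 min, 8.77% were lower and 2.24% were higher. Over windows with reads in both compared libraries, the standard deviation (SD) of the log2 ratio was 1.27 in the lowest group and 0.661 in the highest. Counting error alone would give 0.204 and 0.123. Even the best covered windows thus spread over 5 times as far as independent reads would. The ratio of summed reads hardly moved across these groups, with 1.00 in the lowest, 0.996 in the middle one and 1.00 in the highest.

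**Figure D1:**
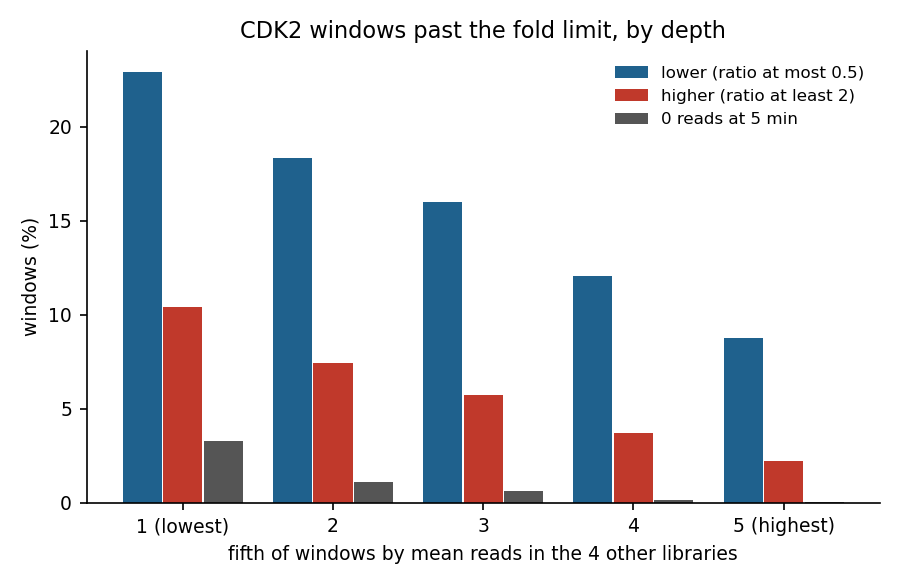
Share of autosomal 10 kb windows (y axis, %) that were lower (blue), higher (red) or without reads (grey) for CDK2 at 5 min against 0 min, in 5 equal groups of windows by the mean of the 4 reference libraries (x axis). All 3 shares decline with coverage, for the lower windows from 22.9% to 8.77%.

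Most called windows stood alone. With 5.9% of windows higher and 15.6% lower, most would do so wherever they were placed, and no expected share was computed. Of the 15548 higher windows, 13382 (86.1%) had no higher window beside them, and 270 (1.74%) lay in runs of 3 or more. Of the 41146 lower windows, 27878 (67.8%) stood alone and 3782 (9.19%) lay in runs of 3 or more. The windows next to a higher window were higher in 7.37% of cases, and windows 500 kb away in 6.86%, against 5.9% of all windows. Next to a lower window 18.0% were lower and at 100 kb 17.1%, against 15.6% of all. The 10 kb beside a called window therefore looked much like windows farther away. The summed ratio of the neighbours was 1.01 beside higher and 0.988 beside lower windows.

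**Figure D2:**
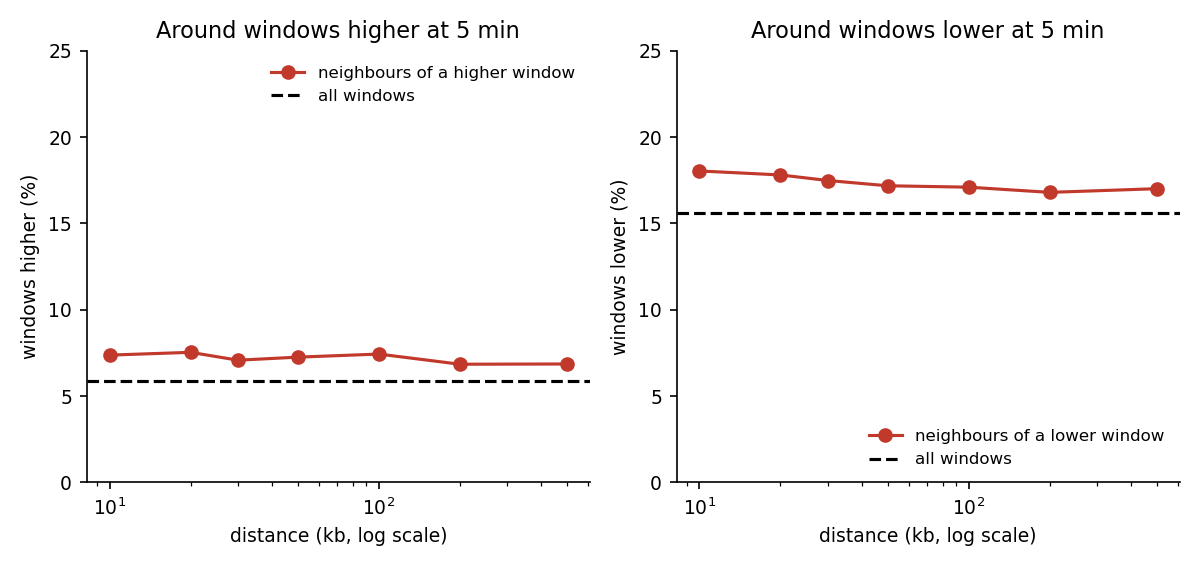
Share of windows (y axis, %) called higher (left) or lower (right) for CDK2 at 5 min against 0 min at a given distance from a window called the same way (x axis, kb, log scale), with the share in all windows as a dashed line. The share starts at 7.37% (left) and 18.0% (right) at 10 kb and changes little out to 500 kb.

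The longest run of higher windows spanned 50 kb, chr13:71590001-71640000. CDK2 had 552, 1797 and 460 reads there at 0, 5 and 30 min, a ratio of 2.54 at 5 min, while PARP1 had 791, 844 and 805 reads. Only the 5 min CDK2 library was high in that run. The longest runs of lower windows spanned 70 kb. In chr7:132360001-132430000, CDK2 had 696, 156 and 878 reads at 0, 5 and 30 min, a ratio of 0.175, and PARP1 had 959, 1197 and 1001. In chr2:77440001-77510000, CDK2 had 963, 415 and 490 reads at the 3 times, a ratio of 0.336 at 5 min, and PARP1 had 983, 923 and 940. The run on chromosome 7 was low in the 5 min library alone, whereas that on chromosome 2 also held fewer CDK2 reads at 30 min than at 0 min.

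Among windows with a mean of at least 100 reads in the reference libraries and reads in both compared libraries, 5 were named on each side by their counting interval. The highest was chr2:233970001-233980000, with 29, 294 and 165 reads at 0, 5 and 30 min for CDK2 and 118, 202 and 123 for PARP1. Its ratio was 7.91, with a counting interval of 5.39 to 12.0 and a widened one of 2.18 to 28.7. The window chr17:12680001-12690000 had 62, 557 and 126 reads at 0, 5 and 30 min for CDK2, a ratio of 7.01 (widened 2.84 to 17.3), and 162, 123 and 150 for PARP1. The windows chr7:103980001-103990000, chr18:46530001-46540000 and chr19:21910001-21920000 had ratios of 6.45 (widened 2.71 to 15.3), 6.67 (2.25 to 19.8) and 6.27 (2.42 to 16.2). In these 5 windows the CDK2 ratio at 30 min, from the same 0 min library, ran from 1.21 to 6.40 and the PARP1 ratio at 5 min from 0.622 to 1.63. Their flanking windows had lower CDK2 ratios at 5 min, from 0.307 to 2.64. Since the 5 windows were picked as extremes of this ratio, lower flanks follow from the ranking. The intervals are not corrected for that choice.

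On the lower side, each of the 5 windows named by this rule held 1 read at 5 min. The first was chr5:170650001-170660000, with 331, 1 and 190 reads at 0, 5 and 30 min for CDK2 and 279, 328 and 231 for PARP1. The ratio was 0.00236, with a counting interval of 5.95e-05 to 0.0132. The widened interval rests on that 1 read and ran from 1.75e-09 to 3177. It spanned 1 in all 5 of these windows, whereas it excluded 1 in all 5 on the higher side. The windows directly before and after it had ratios of 1.75 and 1.73. The window chr1:206200001-206210000 had 218, 1 and 264 reads at 0, 5 and 30 min, with 285, 273 and 380 for PARP1, and its flanks had ratios of 1.58 and 1.93. The other 3 were chr3:117910001-117920000, chr3:117280001-117290000 and chr5:123920001-123930000, with 229, 221 and 222 reads at 0 min. The flanks of all 5 near-empty windows had ratios from 0.670 to 1.93. Higher flanks follow from the ranking here too.

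Windows without any read at 5 min numbered 2735 (1.04% of those compared), against 13 at 0 min, 389 at 30 min, and 4, 12 and 4 for PARP1. A count of 0 allows up to 3 reads, which is 0.0519 reads after scaling the 5 min library to 1000000. In these windows the median count was 91 for CDK2 at 0 min, 76 at 30 min and 114, 120 and 132 for PARP1, and 1172 of them held at least 100 reads at 0 min. Their share was 3.28% in the group of lowest reference coverage and 0.0266% in the highest, and it ran from 0.371% on chromosome 5 to 2.71% on chromosome 22. Of the 2735, 2546 (93.1%) had no other such window beside them. At 1.04% of windows, most would stand alone wherever they were placed. The longest stretch was chr2:112600001-112640000, with 61, 0 and 36 reads at 0, 5 and 30 min, and 89, 111 and 123 for PARP1. The deepest stretch of 3 such windows was chr12:9160001-9190000, with 171, 0 and 202 reads at 0, 5 and 30 min, at least 58.7-fold lower at 5 min by the bound of its counting interval, and PARP1 had 235, 119 and 244. The other stretches, chr12:7700001-7730000, chr12:11450001-11480000 and chr19:43850001-43880000, were at least 44.5-fold, 22.3-fold and 34.8-fold lower by the same bound.

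When every called window was ranked by its counting interval, the higher side was led by windows with few reads elsewhere. The window chr9:44810001-44820000 had 1 read at 0 min and 93 at 5 min, a ratio of 72.6 (counting interval 12.7 to 2898, widened 0.284 to 18542), but 7 at 30 min and 16, 7 and 5 for PARP1. The window chr9:70980001-70990000 had 1 and 82 reads, a ratio of 64.0 (11.2 to 2559, widened 0.244 to 16777), and 0 at 30 min. The window chr7:57020001-57030000 had 0 and 55 reads, at least 11.3-fold higher by the bound of its counting interval, and chr9:39030001-39040000 had 0 and 47, at least 9.56-fold higher by that bound. The window chr10:81480001-81490000 had 0 and 109 reads, at least 22.7-fold higher by that bound. Where both libraries held reads the widened interval spanned 1, and with 0 reads on a side it cannot be given. None of these 5 windows held more than 23 reads in any of the other libraries. Their means over the reference libraries ran from 3 to 9.25 reads, and each held 0 or 1 read at 0 min. They reached the minimum mean of 10 reads only through their 5 min count, the same count that made their ratios high. On the lower side, the same ranking was led by well covered windows without a read at 5 min. The first, chr3:148370001-148380000, had 301 reads at 0 min and 201 at 30 min for CDK2 and 290, 225 and 299 for PARP1, and was at least 104-fold lower at 5 min by the bound of its counting interval. Its flanks held 215 and 334 reads at 5 min. The window chr5:134090001-134100000 had 292 reads at 0 min and 228 at 30 min (at least 101-fold lower at 5 min by that bound), and chr21:17940001-17950000 had 274 and 120 (at least 94.5-fold). The last were chr6:36480001-36490000, with 269 and 144 reads (at least 92.8-fold), and chr12:116350001-116360000, with 265 and 246 (at least 91.4-fold).

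The deepest windows of the genome mostly had ratios near 1. The 10 with the highest mean in the reference libraries were named, of which 7 lay within 1 Mb of the longest stretch of their chromosome with 0 reads in all 6 libraries. On most chromosomes this stretch takes in the centromere. The deepest, chr1:121480001-121490000, ends where that stretch begins and held 33458 reads at 0 min and 39130 at 5 min, a ratio of 0.913 (widened 0.845 to 0.986). Next, chr6:58770001-58780000 held 30101 and 33474, a ratio of 0.868 (0.799 to 0.943), and chr19:27730001-27740000 held 12315 and 14877, a ratio of 0.943 (0.832 to 1.07). The windows chr10:42380001-42390000, chr18:18510001-18520000, chr18:100001-110000 and chr7:61960001-61970000 had ratios between 0.930 and 0.978, each with a widened interval that spanned 1. Repeats beside centromeres exist in many copies, and the counts do not tell which copy a read came from.

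The other 3 of the 10 deepest windows lay farther from 1. The window chr1:560001-570000 had CDK2 counts of 38577, 69604 and 38315 at the 3 times, a ratio of 1.41 (widened 1.33 to 1.495), and 7561, 8954 and 7886 reads for PARP1. The window chr5:134260001-134270000 held 16339, 27840 and 16031 for CDK2, a ratio of 1.33 (1.21 to 1.46), and 3691, 4461 and 3994 for PARP1. At both places the reference genome carries a nuclear copy of mitochondrial DNA, and whether the reads come from mitochondria was not tested. Only CDK2 at 5 min was raised against its 0 min level by more than 1.2-fold there. The window chr21:9820001-9830000 went the other way, with 2096, 1640 and 3157 reads at 0, 5 and 30 min for CDK2, a ratio of 0.611 (0.423 to 0.882). PARP1 had 3465, 5294 and 10364 reads there, a ratio of 1.46 at 5 min.

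Summing windows reduced the spread of the CDK2 ratio at 5 min much faster than that of the other comparisons. Each SD here leaves out places without reads in either compared library, which for CDK2 at 5 min kept 260864 of the 263610 windows. Over 10 kb windows the SD of the log2 ratio was 0.957, the widest of the 4 comparisons with 0 min. It was 0.777 for CDK2 at 30 min, 0.429 for PARP1 at 5 min and 0.353 for PARP1 at 30 min. Over segments of 100 kb the SD for CDK2 at 5 min was 0.255, below the 0.302 of CDK2 at 30 min. Over segments of 1000 kb it was 0.0935, the narrowest of the 4, against 0.205, 0.150 and 0.108. At each size from 10 to 1000 kb the SD was between 5.12 and 5.99 times that of counting error alone. For CDK2 at 30 min that multiple went from 4.47 to 12.1 over the same sizes and for PARP1 at 5 min from 2.88 to 10.3. At 2000 kb it was 6.72 for CDK2 at 5 min, 16.1 for CDK2 at 30 min and 13.7 for PARP1 at 5 min. The 5 min CDK2 library thus differed most from its 0 min library in single windows and least over a megabase.

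**Figure D3:**
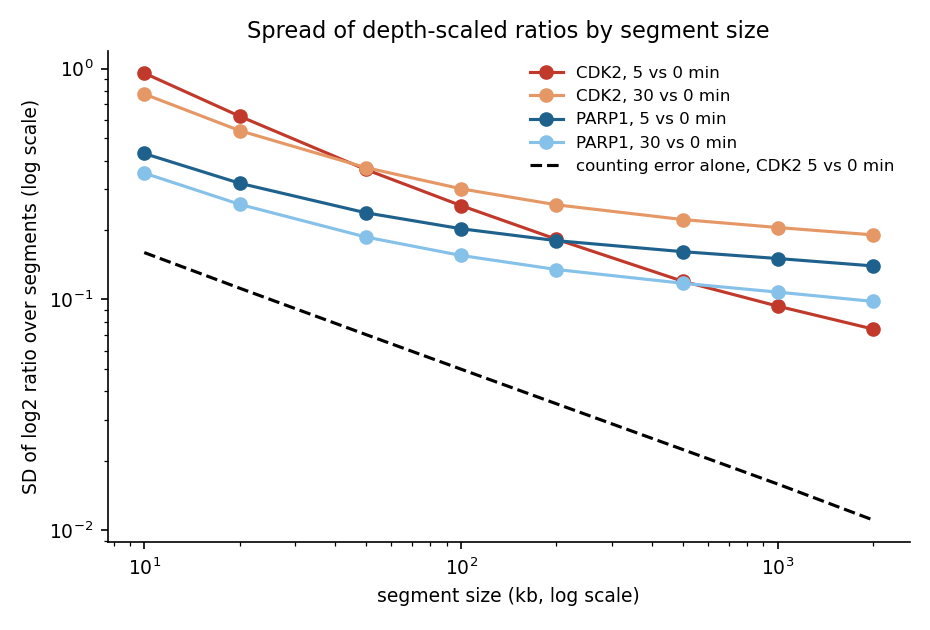
SD of the log2 ratio to 0 min over segments (y axis, log scale) against segment size (x axis, kb, log scale) for the 4 comparisons with 0 min, with the SD from counting error alone for CDK2 at 5 min as a dashed line. The line of CDK2 at 5 min starts highest at 0.957 for 10 kb and runs parallel to the dashed line over most sizes. It is lowest at 1000 kb, with 0.0935, and ends lowest at 2000 kb, with 0.0744.

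Of 26032 segments of 100 kb with a mean of at least 500 reads, 0 reached a ratio of 2, and 26 were at or below 0.5. The middle 90% lay between 0.730 and 1.29. The highest segment, chr13:71600001-71700000, overlaps the longest run of higher windows and had 1083, 2761 and 1013 reads at 0, 5 and 30 min, a ratio of 1.99 (widened 1.45 to 2.72). PARP1 had 1687, 1595 and 1721 reads in it. The next were chr12:9200001-9300000 with 1.87 (1.205 to 2.92), chr3:28400001-28500000 with 1.87 (1.40 to 2.503), chr4:117300001-117400000 with 1.86 (1.34 to 2.57) and chr17:28900001-29000000 with 1.82 (1.08 to 3.05). The lowest segment was chr19:54100001-54200000, with 1024, 397 and 966 reads at 0, 5 and 30 min, a ratio of 0.303 (0.146 to 0.626), and 1023, 1274 and 1265 for PARP1. It was followed by chr11:8500001-8600000 with 0.385, chr8:13100001-13200000 with 0.397, chr1:77000001-77100000 with 0.431 and chr17:11300001-11400000 with 0.441. In these 10 segments the CDK2 ratio at 30 min ran from 0.835 to 1.28.

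In the 2679 blocks of 1 Mb whose mean reached 5000 reads, CDK2 at 5 min stayed close to its 0 min level. The ratios ran from 0.760 to 1.38 with a median of 0.997, and 90% lay between 0.892 and 1.11. Only 7 blocks (0.261%) reached 1.2 and 14 (0.523%) were at or below 1/1.2. For CDK2 at 30 min these counts were 317 (11.8%) and 239 (8.92%), for PARP1 at 5 min 123 (4.59%) and 81 (3.02%), and for PARP1 at 30 min 9 (0.336%) and 14 (0.523%). The widened interval lay above 1 in 135 blocks (5.04%) and below 1 in 116 (4.33%). With TMM factors 38 blocks reached 1.2 and 1 was at or below 1/1.2, since that scaling raises every log2 ratio by 0.0639. Neighbouring blocks resembled each other less than in the other comparisons, with a Spearman correlation of 0.264 over 2627 pairs, against 0.717 for CDK2 at 30 min and 0.725 for PARP1 at 5 min.

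Of the 10 highest blocks, 4 were on chromosome 4 and 2 on chromosome 5. These chromosomes hold 187 and 178 of the 2679 blocks. The block chr4:61000001-62000000 had 12386, 19758 and 9147 reads at 0, 5 and 30 min, a ratio of 1.25 (widened 1.11 to 1.39), and 64 of its 100 windows lay above 1. PARP1 had 15094, 13545 and 16068 reads in it, a ratio of 0.856 at 5 min. The block chr4:117000001-118000000 had a ratio of 1.22 (1.09 to 1.36), chr4:128000001-129000000 had 1.204 (1.07 to 1.354) and chr4:92000001-93000000 had 1.19 (1.05 to 1.34). The block chr7:145000001-146000000 had 1.23 (1.10 to 1.38), chr5:120000001-121000000 had 1.205 (1.10 to 1.32), chr5:26000001-27000000 had 1.19 (1.08 to 1.31) and chr1:105000001-106000000 had 1.197 (1.07 to 1.34). In these 8 blocks both CDK2 at 30 min, which shares the 0 min library, and PARP1 at 5 min lay below 1. Among all blocks, 47.6% lay above 1 for CDK2 at 30 min and 49.7% for PARP1 at 5 min. The other two behaved otherwise. The block chr19:48000001-49000000 had 1.21 (1.05 to 1.38), with 1.38 for CDK2 at 30 min and 1.23 for PARP1 at 5 min. The first block of chromosome 1 had 1.38, of which 97.4% of the 5 min reads came from 2 windows including the one with the mitochondrial copy, and without them its ratio was 0.832.

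The lowest block was chr4:8000001-9000000, with 8785, 8550 and 10765 reads at 0, 5 and 30 min, a ratio of 0.760 (0.645 to 0.894), and 7 of its 98 windows held 0 reads at 5 min. PARP1 had 10765, 13797 and 14078 reads in it. The block chr9:139000001-140000000 had 15878, 16686 and 22339 CDK2 reads at the 3 times, a ratio of 0.820 (0.730 to 0.922) at 5 min and 1.58 at 30 min, and a PARP1 ratio of 1.33 at 5 min. On chromosome 18, chr18:11000001-12000000 had 0.797 (0.690 to 0.921) and chr18:5000001-6000000 had 0.823 (0.717 to 0.945). The others were chr1:5000001-6000000 with 0.8004 (0.689 to 0.929), chr8:33000001-34000000 with 0.809 (0.706 to 0.929), chr10:135000001-136000000 with 0.813 (0.650 to 1.02), chr21:9000001-10000000 with 0.815 (0.679 to 0.978), chr17:11000001-12000000 with 0.823 (0.711 to 0.954) and chr16:16000001-17000000 with 0.826 (0.695 to 0.980). The block of chromosome 21 holds the deep window named above, and without its 2 deepest windows it had 0.889. Of these 10 blocks, 8 lay above 1 for PARP1 at 5 min and 7 for CDK2 at 30 min. Among all blocks these shares were 49.7% and 47.6%. The CDK2 ratio at 30 min shares the 0 min library by which the blocks were picked.

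Over all blocks, the CDK2 ratio at 5 min ran against the PARP1 ratio at 5 min. The Spearman correlation was -0.412 and the Pearson correlation of the log2 ratios -0.405 over 2679 blocks, which share mappability, base composition and depth between the antibodies and are not independent. The order of blocks does not depend on how libraries are scaled. Among 5 groups of blocks by PARP1 ratio, in the group with the lowest PARP1 ratios, up to 0.911, the median CDK2 ratio was 1.04, and 407 of 536 blocks lay above 1. It was 1.01, 0.995 and 0.981 in the following groups. In the group with the highest PARP1 ratios, from 1.10 to 1.34, it was 0.963 and 140 of 536 blocks lay above 1. CDK2 at 30 min went the other way, with medians of 0.845 and 1.21 in these 2 outer groups.

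**Figure D4:**
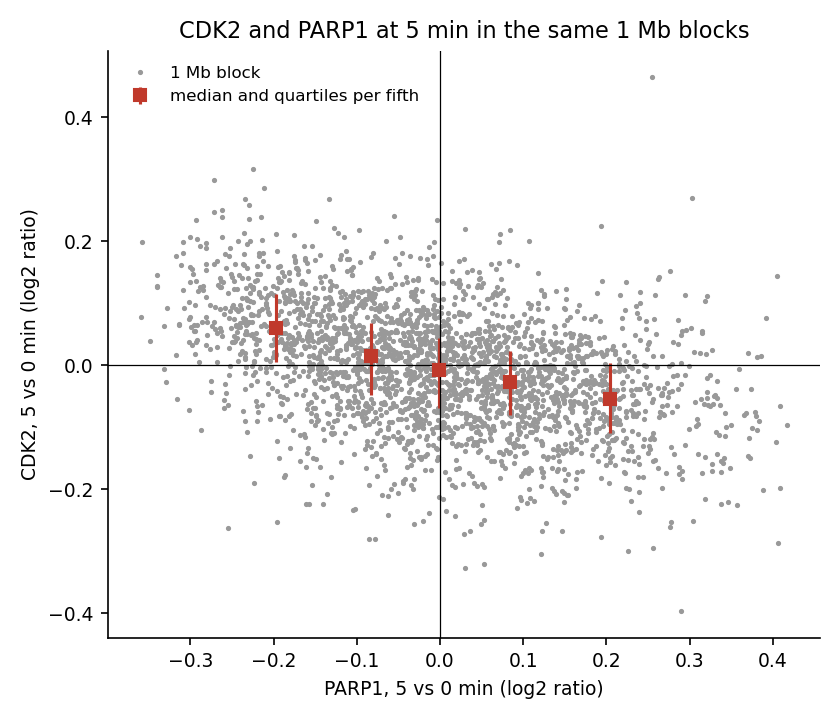
Log2 ratio of CDK2 at 5 min against 0 min (y axis) and of PARP1 at 5 min against 0 min (x axis) in 2679 autosomal blocks of 1 Mb (grey points), with the median and quartiles of CDK2 in each of 5 groups of blocks by PARP1 (red squares and bars). The medians decline from left to right, and the ratios behind them go from 1.04 to 0.963.

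The opposition was weaker in smaller blocks, with a Spearman correlation of -0.319 at 500 kb and -0.145 at 100 kb, and stronger at 2 Mb, with -0.518. Without chromosomes 16, 17, 19, 20 and 22 it was -0.413. Within chromosomes it was negative in 21 of 22, from -0.603 on chromosome 13, with 96 blocks, to 0.0723 on chromosome 22, with 34 blocks. PARP1 at 30 min gave -0.373 with CDK2 at 5 min, and CDK2 at 30 min gave 0.913 with PARP1 at 5 min, each pair without a shared library.

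By whole autosome, the share of CDK2 reads at 5 min stayed within 5% of that at 0 min. With scaling by totals the ratio was above 1 on 10 of 22 autosomes, and the widened interval lay above 1 on 6 and below 1 on 9. With TMM factors, size factors or the median window set to 1, all 22 lay above 1, so the side of 1 rests on the scaling and the order of the chromosomes does not. Chromosome 13 had the highest ratio, with 1397196 reads at 0 min and 1832971 at 5 min, 1.02 (1.01 to 1.04). Chromosome 4 followed with 1.02 (1.01 to 1.03), then chromosomes 14, 7, 3 and 5 with 1.01 each. Chromosome 22 had the lowest, with 336239 and 412314 reads, 0.957 (0.935 to 0.980), and then came chromosomes 16 with 0.960 (0.947 to 0.972), 20 with 0.971 (0.957 to 0.985), 17 with 0.972 (0.961 to 0.983) and 19 with 0.978 (0.959 to 0.996). Chromosomes 16, 17, 19 and 22 are among the most gene-dense of the genome, and chromosomes 4 and 13 among the most gene-poor. Chromosome 18, also gene-poor, had a ratio of 0.981 (0.967 to 0.995) and so lay with the lower group. Chromosomes 22 and 19 also had many called windows in both directions, with 22.6% lower and 8.19% higher on chromosome 22 and 22.4% and 9.25% on chromosome 19. Their median window held 100.5 and 92 reads at 0 min, the lowest medians of the 22 autosomes.

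With scaling by totals, the CDK2 and PARP1 ratios at 5 min lay on opposite sides of 1 on 19 of 22 autosomes. On 14 both widened intervals excluded 1 in opposite directions. These intervals leave out variation over many windows, so the count of 14 can be too high. For PARP1 at 5 min the SD over 1000 kb segments was 10.3 times that of counting error alone. The PARP1 ratio was 1.14 (1.13 to 1.16) for chromosome 22 and 1.15 (1.13 to 1.16) for chromosome 19. Chromosome 4 lay at the other end for PARP1, with 0.947 (0.942 to 0.952). The one autosome with both intervals on the same side was chromosome 18, with 0.991 (0.983 to 0.999) for PARP1. The range over autosomes was 0.957 to 1.02 for CDK2 at 5 min, narrower than the 0.929 to 1.24 of CDK2 at 30 min and the 0.947 to 1.15 of PARP1 at 5 min.

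**Figure D5:**
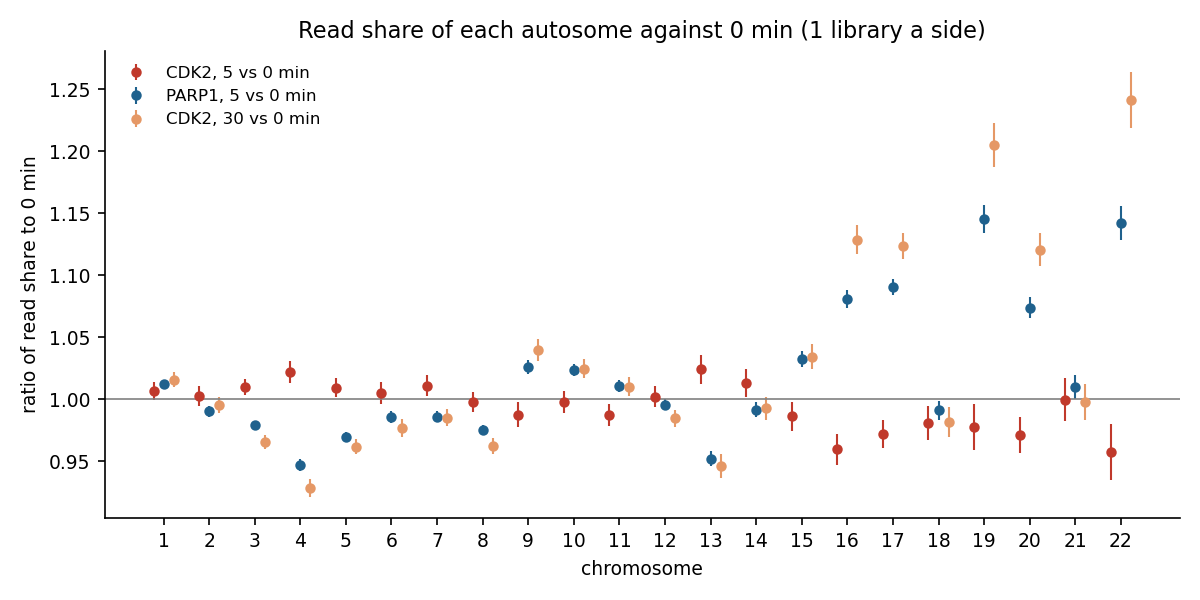
Ratio of the read share of each autosome to its 0 min share (y axis) for CDK2 at 5 min, PARP1 at 5 min and CDK2 at 30 min, with widened 95% intervals as bars and the chromosome on the x axis. On chromosomes 16, 17, 19, 20 and 22 the CDK2 points at 5 min lie between 0.957 and 0.978 while the others lie above 1.

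Each chromosome was also split at its longest stretch without reads. On chromosomes 13, 14, 15, 21 and 22 that stretch starts at the first base. Their long arms therefore hold all compared windows and repeat the values of the whole chromosome. The arms with the lowest ratio were the short arms of chromosomes 16, with 0.942 (0.923 to 0.962), and 18, with 0.952 (0.921 to 0.984), the long arm of 22, with 0.957, and the short arms of 17, with 0.958 (0.932 to 0.986), and 20, with 0.967 (0.944 to 0.991). The highest was the long arm of chromosome 4, with 1.035 (1.02 to 1.05), whereas its short arm had 0.986 (0.968 to 1.00). The long arm of 13 followed with 1.02, then the short arm of 9 with 1.02 (1.00 to 1.04) and the long arms of 7 with 1.02 (1.01 to 1.03) and 3 with 1.02. On chromosome 9 the long arm lay lower, with 0.975 (0.963 to 0.988). On chromosome 4, the lowest of the compared blocks lay on the short arm and 4 of the 10 highest on the long arm. These arms hold 4908 and 13786 of the 263610 compared windows.

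At chromosome ends, CDK2 and PARP1 again lay on opposite sides of 1 at 5 min with scaling by totals. CDK2 at 30 min lay on the side of PARP1. In the 7271 windows within 2 Mb of a chromosome end, the summed CDK2 ratio at 5 min was 0.978 (0.966 to 0.991), against 1.15 (1.14 to 1.16) for PARP1 at 5 min and 1.23 (1.21 to 1.24) for CDK2 at 30 min. Without the 1% of windows with the highest mean, the CDK2 ratio at 5 min there was 0.961 (0.948 to 0.974). In the 6360 windows within 2 Mb of the longest stretch without reads it was 0.982 (0.969 to 0.996), and 0.989 (0.975 to 1.00) without those deepest windows. There PARP1 at 5 min lay on the same side of 1, with 0.991 (0.984 to 0.999), and 0.968 (0.961 to 0.976) without the deepest windows. The remaining 249979 windows had a CDK2 ratio of 1.00 at 5 min, with 5.83% higher and 15.4% lower.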

How the data were processed

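The deposited table holds raw read counts per 10 kb window for 6 ChIP-seq libraries, 1 per antibody and time, in hg19 (GRCh37) coordinates. Reads were aligned with Bowtie 1.0.0, per the submitters' processing notes. The treatment of duplicate and multiply mapping reads was not given in the sources used here, and both can raise single windows. Totals lay between 40097131 and 63448449 reads.

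Ratios were scaled by totals. Windows entered with a mean of at least 10 reads over the 6 libraries. Calls used fold limits (2 for windows, 1.2 for blocks) without a test, since there was 1 library a side. Counting intervals are Clopper-Pearson 95% intervals given the summed counts. The code was tested on simulated independent counts. These lack the dispersion of the libraries, so the test does not show how calls or intervals behave in them. Named regions followed rules on interval bound, ratio, depth or run length, with at most 1 window per 100 kb. The runs of called windows were named after their values were seen. Members, rules and lists were chosen with earlier results of these data known. Because the reference tables follow GRCh38.p14, no window was matched to a gene, the planned gene lists were not evaluated and no sequence is shown. The tools were pandas 2.3.3, scipy 1.17.1, numpy 2.4.6 and matplotlib 3.10.9 in Python 3.11.15, with edgeR 4.0.16 and DESeq2 1.42.0 in R 4.3.3 for scaling factors only.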

Additional observations from a re-analysis of the deposited data

Results flagged for a closer look

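On 14 autosomes CDK2 and PARP1 moved to opposite sides of 1 between 0 and 5 min, each with its widened interval excluding 1, with scaling by totals. The difference was not tested, since there was 1 library per antibody and time. The widened intervals leave out variation over many windows and can be too narrow for whole chromosomes. The CDK2 ratio divided by the PARP1 ratio was 1.03 on chromosome 3, 1.08 on chromosome 4, 1.04 on chromosome 5, 1.03 on chromosome 7, 1.08 on chromosome 13 and 1.02 on chromosome 14. It was 0.963 on chromosome 9, 0.977 on chromosome 11, 0.955 on chromosome 15, 0.888 on chromosome 16, 0.891 on chromosome 17, 0.853 on chromosome 19, 0.904 on chromosome 20 and 0.838 on chromosome 22. Under 4 other scalings the CDK2 ratio lay above 1 on these 8 chromosomes too. The PARP1 ratios were not recomputed with them.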

How the results depend on the processing

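No paired analysis was possible because each antibody and time had 1 library. The scalings act as a constant shift of the log2 ratio, 0.0639 for TMM, 0.0689 for size factors, 0.0632 for the median window set to 1 and 0.401 for the fifth of windows with the lowest mean over all 6 libraries. That last choice favours windows with few reads at 5 min by its construction. With the fifth chosen on the 4 other libraries, an alternative added after seeing the data, the shift was -0.00664 and 8 autosomes lay above 1. Under the first 4 scalings all 22 autosomes lay above 1, not 10. The log2 ratios of chromosomes 9, 11, 15, 16, 17, 18, 19, 20 and 22 then became 0.0459, 0.0455, 0.0441, 0.00455, 0.0226, 0.0360, 0.0311, 0.0213 and 0.000745 with TMM. With size factors they were 0.0509, 0.0505, 0.0490, 0.00952, 0.0276, 0.0410, 0.0361, 0.0263 and 0.00572. With the median window at 1 they were 0.0453, 0.0449, 0.0434, 0.00387, 0.0219, 0.0354, 0.0304, 0.0206 and 7.33e-05. With the lowest windows they were 0.383, 0.382, 0.381, 0.341, 0.359, 0.373, 0.368, 0.358 and 0.338. Chromosome 3 went to -0.000571 without the 1% of windows of highest mean, but had 0.0141 when these were chosen on the 4 other libraries.

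Windows higher and lower numbered 45144 and 24845 with scaling on the lowest windows, 46657 and 71050 at a fold limit of 1.5, 2082 and 20095 at 3, and 542 and 13071 at 4. With an exact binomial test added they were 15507 and 40995, so counting error removed few. That test assumes independent reads, whereas the dispersion was 7.44 for CDK2 at 0 min and 51.8 at 5 min. How many called windows have a widened interval that excludes 1 was not counted. Blocks past 1.2-fold, higher and lower, numbered 38 and 1 with TMM, 43 and 1 with size factors, 37 and 2 with the median window at 1, 2456 and 0 with the lowest windows, 2 and 2 in blocks of 2 Mb, and 58 and 125 in blocks of 500 kb. Without windows at 0 reads at 5 min, 7 blocks were lower. Windows with 0 reads at 5 min numbered 1243 at a minimum of 100. The alternatives for the correlation of CDK2 with PARP1 at 5 min were added after seeing the data. It was -0.145 over blocks of 100 kb, and the cause was not tested. Without the deepest windows and after thinning, the spread over 10 kb remained the widest of the 4 comparisons with 0 min. That over 1 Mb remained the narrowest. Dropping windows at 0 reads at 5 min could not change the 10 kb spread of CDK2 at 5 min, which already left them out. Over 1 Mb its spread without them was 0.0936, still the narrowest.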
